A study of Mus musculus with 9 samples.

Results

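Synaptic vesicle and SNARE genes were taken as the gene rows named for synaptotagmins (Syt), synapsins (Syn), syntaxins (Stx), syntaxin-binding proteins (Stxbp), vesicle-associated membrane proteins (Vamp), SNAP proteins (Snap), complexins (Cplx), SV2 proteins (Sv2), synaptogyrins (Syngr) and synaptophysin (Syp), with nothing after the number or letter of the symbol. The rule found 64 of 32531 gene rows. They were divided by textbook knowledge into 31 neuronal members, best known from nerve terminals, 24 general members, which serve membrane traffic in most cells, and 9 members left unplaced. The division was made with earlier results of these data known, so it is not independent of them. All samples were cerebral cortex of untreated adult control mice of the line Abcb1a-TRAP ES3026, carrying an Abcb1a-EGFP/Rpl10a transgene. In the TRAP method, ribosomes tagged with EGFP on the protein Rpl10a are pulled down together with the RNA they translate, and here Abcb1a, which encodes an efflux transporter of brain endothelial cells, supplied the regulatory sequence. There were 9 libraries in 3 groups of 3: immunopurified ribosome-bound RNA (IP) extracted by an investigator with the initials ES, the same fraction extracted by JL, and total input RNA extracted by JL. The mouse line is 1 transgenic line, and nothing in the labels ties the 3 libraries of a group to 3 animals. P-values here measure the spread between libraries, which may be technical.

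SNARE proteins sit on vesicles and on target membranes and zip together into a bundle that pulls the membranes into fusion. At nerve terminals the vesicle SNARE Vamp2 pairs with Snap25 and a plasma membrane syntaxin, complexins steer the assembly, and synaptotagmins couple it to calcium. Other cells, endothelium among them, use related SNAREs such as Snap23, Vamp3, Vamp8 and syntaxin 4 for secretion, recycling of receptors and traffic between organelles. In cortex the neuronal set is expressed mostly by neurons.

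Levels are given as CPM, counts per 1000000 gene counts after scaling of the 9 libraries with TMM factors, and fold changes as log2 values ± standard error from edgeR's quasi-likelihood test, called at an adjusted p under 0.05. Libraries held 31987470 to 46598478 gene counts, and 3 counts correspond to 0.0589 to 0.103 CPM. The labelled cell type was checked with 15 endothelial markers. All of them were higher in both IP sets than in the inputs and none stood at 0 in any library. Their summed level was 65.6 to 67.5 CPM in the inputs, while JL IPs held 9144 to 9987 and ES IPs 952 to 1723. Abcb1a itself stood at 2.16 ± 0.484 CPM in the inputs, 466 ± 21.5 in the JL IPs and 44.9 ± 9.21 in the ES IPs (SD, n = 3). Cldn5, a tight junction protein of endothelium, stood at 0.744, 543 and 79.7 CPM, and Rpl10a, whose coding sequence is in the transgene, at 7.60, 9.83 and 4.39 CPM on average. Of the ES IPs, replicate 1 stood apart from the others, with correlations of log2 CPM of 0.9731 and 0.9703 with them against 0.9854 between those 2, and it had the highest endothelial sum. In bulk RNA, fewer cells of a type and less RNA per cell cannot be told apart.

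Of the 64 members, 59 had enough counts to be tested. The other 5 were Cplx4, Stx19, Syngr4, Syt8 and Vamp7, whose highest value was 0.506 CPM (Syngr4 in JL IP replicate 3). Vamp7 was listed at 0 in all 9 libraries.

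The first comparison set the JL IPs against the JL inputs, to show which RNAs the purification raised or lowered. JL IP and input with the same replicate number carried the same lane number. Neuronal and general members went opposite ways. All 30 tested neuronal members were lower in the JL IPs, and 17 of 22 tested general members were higher. Among all 17357 genes tested, 74.1% were called, 37.4% lower and 36.7% higher in the JL IPs. The median log2 fold change was -2.67 for neuronal members, 1.01 for general members and -0.09 for all genes. All 3 JL IP libraries lay outside the range of the inputs for 80.8% of tested genes and for every tested member except Vamp4.

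Snap25, the plasma membrane SNARE of neurons, was the most abundant member in the cortex (chromosome 2, 136713453 to 136782428, mm10). The inputs held 10177, 10264 and 11063 CPM and the JL IPs 1253, 1292 and 1575. Each IP was thus lower than any input (-2.93 ± 0.10, adjusted p = 3.04e-08). Snap25 alone made up 50.1 to 51.8% of the summed level of the neuronal members in the inputs and 37.6 to 39.9% in the JL IPs. The whole neuronal sum came to 20039 to 21342 CPM in the inputs and 3238 to 4145 in the JL IPs, or 2.19 to 2.30% and 0.295 to 0.384% of all gene counts.

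The vesicle SNAREs of neurons were lower by unequal amounts. Vamp1 (synaptobrevin 1) stood at 162, 147 and 146 CPM in the inputs and 19.3, 23.8 and 24.6 in the JL IPs (-2.75 ± 0.11). Vamp2 (synaptobrevin 2) stood at 1521, 1767 and 1809 CPM in the inputs and 644, 544 and 736 in the JL IPs (-1.41 ± 0.12). The IPs and inputs did not overlap for either gene. The difference between the genes was not tested. Stx1a, a syntaxin that partners Snap25 in the plasma membrane, was lower too. It averaged 99.6 ± 1.04 CPM in the inputs against 16.9 ± 3.44 in the IPs (-2.56 ± 0.14, SD, n = 3).

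Regulators of SNARE assembly held both ends of the neuronal range. Cplx3, a complexin, had the lowest fold change of the members, at 6.51, 7.66 and 6.68 CPM in the inputs and 0.650, 0.609 and 0.438 in the JL IPs (-3.61 ± 0.29). Stxbp5 (tomosyn), which binds syntaxin and hinders SNARE assembly, changed least of the neuronal members, at 233, 228 and 232 CPM against 85.2, 111 and 102 (-1.21 ± 0.10). The libraries of both genes were separate. Complexins 1 and 2, which clamp and promote fusion, changed by -2.75 ± 0.09 and -2.20 ± 0.10.

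All 10 neuronal synaptotagmins were lower, from Syt13 (-3.22 ± 0.20) to Syt12 (-2.09 ± 0.19). Syt1, the calcium sensor of fast release, stood at 1434, 1461 and 1439 CPM in the inputs and 186, 176 and 265 in the JL IPs (-2.79 ± 0.15). Every IP lay below every input. Syt2 and Syt9, its closest relatives in function, changed by -3.07 ± 0.13 and -2.26 ± 0.23, and Syt6 by -3.18 ± 0.24. Syt10, near the low end of the range of levels at 10.5 ± 0.0893 CPM in the inputs, held 2.36, 0.580 and 0.978 CPM in the JL IPs, and so had a wide error (-3.02 ± 0.45). Syt4 and Syt12 share 14.5 and 17.2% of their annotated exon bases with a gene on the opposite strand, and how reads there were assigned is not known.

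Proteins of the vesicle membrane and its coat were all lower as well. Syn1 (synapsin 1), which tethers vesicles in the reserve pool, stood at 541, 560 and 564 CPM in the inputs and 77.4, 71.0 and 117 in the JL IPs (-2.65 ± 0.17). The other synapsins, Syn2 (-2.70 ± 0.10) and Syn3 (-2.48 ± 0.28), lay within their errors of it. Syn3 shares 14.1% of its exon bases with Timp3 on the opposite strand. The glycoproteins Sv2a, Sv2b and Sv2c changed by -2.87 ± 0.15, -2.68 ± 0.14 and -3.23 ± 0.30. Syp, synaptophysin, stood at 876 ± 42.9 CPM against 169 ± 26.5 (-2.37 ± 0.11), the synaptogyrins Syngr1 and Syngr3 changed by -2.64 ± 0.12 and -2.67 ± 0.27, and Snap91 (AP180), a clathrin adaptor for vesicle retrieval, by -3.01 ± 0.08.

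The neuronal members moved with markers of neurons that have no synaptic vesicle role. All 12 of these, among them Map2, Tubb3 and the neurofilaments, were lower in the JL IPs, with a median of -2.53 and a range from -3.79 to -1.50, next to a range from -3.61 to -1.21 for the neuronal members. Their summed level was 5160 to 5303 CPM in the inputs and 747 to 1050 in the JL IPs, with none at 0. JL IP replicate 3 had the highest neuronal sum of the JL IPs in both lists. Astrocyte, oligodendrocyte and microglia markers were mostly lower too, with medians of -2.51, -2.76 and -2.73.

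**Figure D1:**
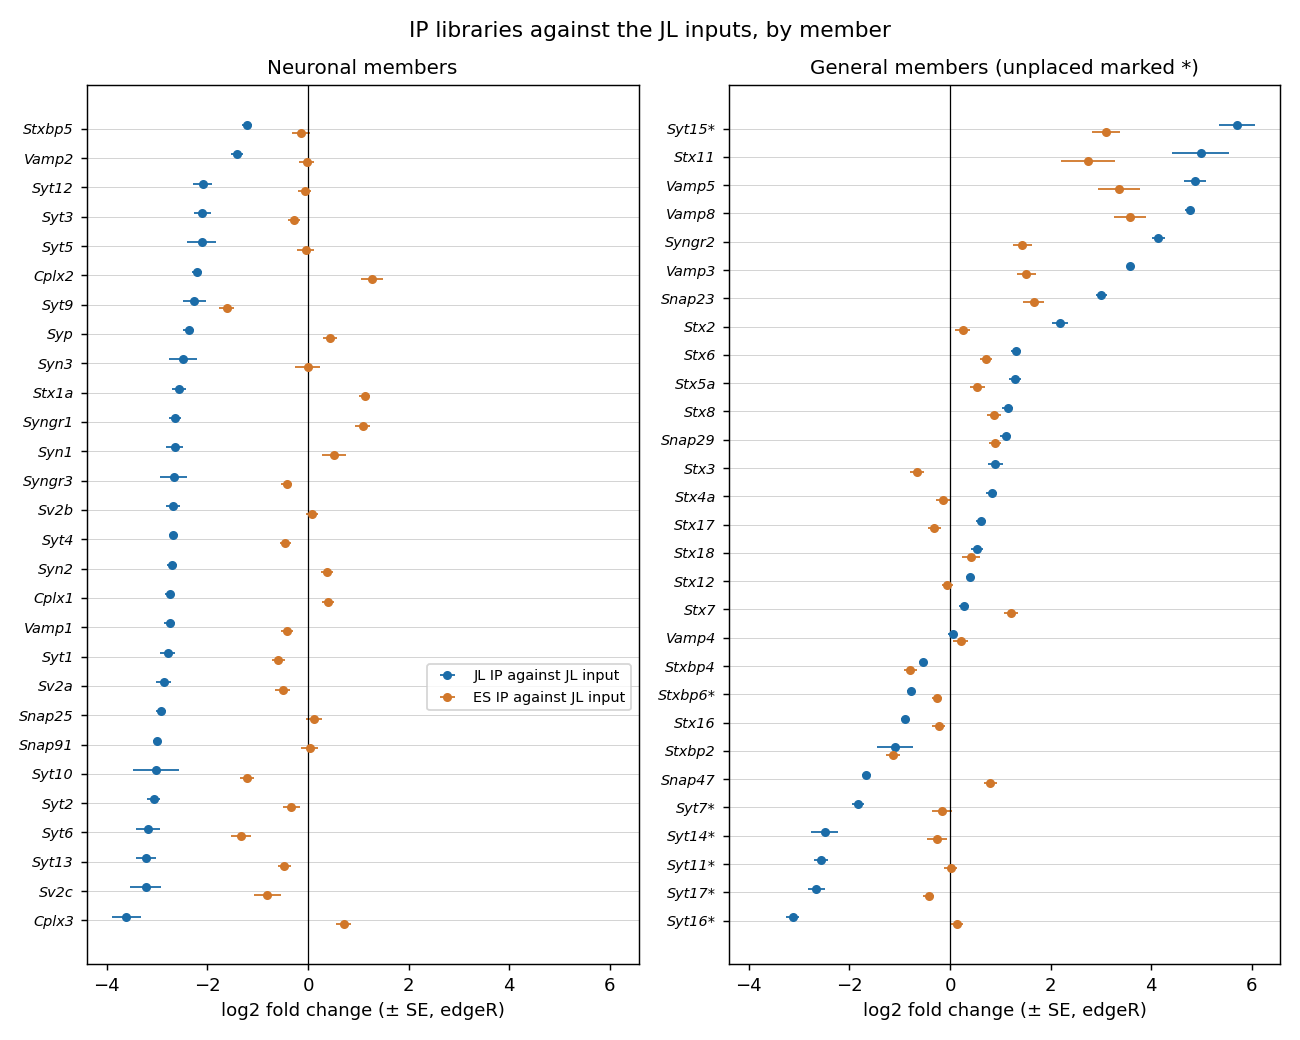
Log2 fold change (± SE, edgeR) of each tested member reported here for JL IP (blue) and ES IP (orange) against the same JL inputs, neuronal members on the left and general and unplaced members on the right, ordered by the JL value. The JL values of the neuronal members lie between -3.61 and -1.21, their ES values between -1.62 and 1.27, and Syt15, Stx11, Vamp5 and Vamp8 are the highest points on the right for JL.

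Among general members, the largest rises were those of Stx11, Vamp5, Vamp8, Syngr2, Vamp3 and Snap23. Vamp3 (cellubrevin), the vesicle SNARE of recycling endosomes (chromosome 4, 151047300 to 151057963), stood at 63.3, 59.2 and 60.3 CPM in the inputs and 759, 726 and 696 in the JL IPs (3.58 ± 0.07, adjusted p = 2.69e-09). Vamp8 (endobrevin), a SNARE of endosomes and secretory granules, stood at 6.14, 6.78 and 5.81 CPM in the inputs and 166, 164 and 176 in the JL IPs (4.76 ± 0.09). Vamp5 stood at 1.69, 0.998 and 1.28 CPM in the inputs and 44.6, 35.2 and 36.8 in the JL IPs (4.87 ± 0.22). For these 3 genes every IP lay above every input, and the folds were 11.9, 27.0 and 29.3. Vamp5 and Vamp8 are neighbours on chromosome 6, 4755 bases apart on the same strand.

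Snap23, the broadly expressed relative of Snap25, stood at 12.3, 13.4 and 14.3 CPM in the inputs and 115, 111 and 95.1 in the JL IPs (3.01 ± 0.11). Stx11, a syntaxin known from secretion by immune cells, held 21 counts over the 3 inputs, at 0.140 ± 0.0869 CPM, and averaged 4.55 ± 1.90 CPM in the JL IPs (4.98 ± 0.57). Stx2 averaged 6.54 ± 0.0940 CPM in the inputs and 29.9 ± 5.26 in the IPs (2.19 ± 0.16). Stx4a, the plasma membrane syntaxin of most cells, was already at 80.2 ± 3.26 CPM in the inputs and rose less, to 142 ± 20.5 (0.83 ± 0.11), and Stx3 rose by 0.90 ± 0.15. The 4 general plasma membrane syntaxins were thus all higher, by between 1.78-fold and 31.5-fold.

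Syngr2 (cellugyrin), the synaptogyrin of cells without synapses, stood at 3.06, 2.85 and 2.85 CPM in the inputs and 54.9, 46.3 and 53.5 in the JL IPs (4.14 ± 0.13). It was 17.6-fold higher in the JL IPs, where its relatives Syngr1 and Syngr3 were lower. Syt15, an unplaced synaptotagmin not known to bind calcium, had the largest change of the members, at 1.08, 0.698 and 1.20 CPM in the inputs and 35.5, 76.6 and 43.5 in the JL IPs (5.71 ± 0.36). The remaining 6 tested unplaced members were lower, from Syt16 (-3.13 ± 0.13) to Stxbp6 (-0.78 ± 0.07).

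The other general members that rose are SNAREs of inner organelles. Stx5a, of the Golgi, and Stx6, of the trans-Golgi network, rose by 1.29 ± 0.12 and 1.31 ± 0.10, Stx8, of late endosomes, by 1.15 ± 0.11, and Snap29, of autophagosomes and endosomes, by 1.11 ± 0.11. Stx17, of autophagosomes, rose by 0.61 ± 0.10. The smallest rises called were those of Stx18 (0.54 ± 0.12), Stx12 (0.40 ± 0.08) and Stx7 (0.28 ± 0.10, adjusted p = 0.0276). Stx7 lost its call with RLE scaling (adjusted p = 0.0521), upper quartile scaling (0.795), library size alone (0.853), all 9 libraries in one fit (0.0975) or any input left out (0.0786 to 0.0798). Stx12 lost it with upper quartile scaling (0.104) or library size alone (0.10), and Stx18 with library size alone (0.0509). Stx18 also shares 32.3% of its exon bases with genes on the opposite strand, Nsg1 among them.

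Vamp4, a SNARE of the trans-Golgi network, stood at 126, 116 and 123 CPM in the inputs and 134, 131 and 111 in the JL IPs. These ranges overlapped, and the change of 0.05 ± 0.09 was not called (adjusted p = 0.657), but with library size alone it was called lower, at -0.22 (adjusted p = 0.0400). Of the general members 4 were lower: Snap47 (-1.66 ± 0.09), Stxbp2 or Munc18-2 (-1.10 ± 0.36), Stx16 (-0.89 ± 0.08) and Stxbp4 (-0.53 ± 0.08). The call of Stxbp2, whose JL IPs held 5.27, 2.64 and 8.40 CPM, ended without JL IP replicate 1 (adjusted p = 0.0544), JL input replicate 2 (0.0557) or JL input replicate 3 (0.0697).

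The promoters of a few of these genes are shown because the genes are close relatives or neighbours that moved apart or together: Syngr1 lower and Syngr2 higher, Vamp5 and Vamp8 both higher, and Syn1, a much studied neuronal promoter, lower. They are RefSeq sequences of build GRCm38.p6, from 250 bases before to 50 bases after the transcription start, written from 5′ to 3′ along the gene. Syn1 lies on chrX:20920869-20921168 (minus strand), Syngr1 on chr15:80091084-80091383 (plus), Syngr2 on chr11:117809417-117809716 (plus), Vamp5 on chr6:72380419-72380718 (minus) and Vamp8 on chr6:72390618-72390917 (minus). Capitals mark matches, on either strand, to TTCAGCACC (the left part of the RE1 element bound by the repressor REST), TGACGTCA (the cAMP response element), GGGCGG (the GC box) and CACGTG (an E-box).
Syn1: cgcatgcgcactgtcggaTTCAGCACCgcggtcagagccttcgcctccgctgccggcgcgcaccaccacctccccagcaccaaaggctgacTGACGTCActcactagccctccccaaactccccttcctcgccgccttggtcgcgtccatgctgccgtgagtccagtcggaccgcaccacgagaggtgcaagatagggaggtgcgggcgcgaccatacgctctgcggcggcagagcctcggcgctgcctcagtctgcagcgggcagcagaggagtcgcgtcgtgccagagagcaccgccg
Syngr1: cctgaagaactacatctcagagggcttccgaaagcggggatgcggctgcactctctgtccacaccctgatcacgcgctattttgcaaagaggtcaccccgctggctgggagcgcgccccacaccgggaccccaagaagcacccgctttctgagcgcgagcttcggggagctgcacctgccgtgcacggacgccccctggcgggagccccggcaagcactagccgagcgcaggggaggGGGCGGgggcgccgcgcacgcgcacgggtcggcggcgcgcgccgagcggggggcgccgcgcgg
Syngr2: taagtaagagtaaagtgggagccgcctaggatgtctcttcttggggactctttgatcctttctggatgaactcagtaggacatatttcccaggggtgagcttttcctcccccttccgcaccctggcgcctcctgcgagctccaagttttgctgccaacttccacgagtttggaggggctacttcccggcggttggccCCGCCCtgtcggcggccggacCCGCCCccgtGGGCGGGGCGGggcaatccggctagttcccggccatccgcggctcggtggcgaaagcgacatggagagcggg
Vamp5: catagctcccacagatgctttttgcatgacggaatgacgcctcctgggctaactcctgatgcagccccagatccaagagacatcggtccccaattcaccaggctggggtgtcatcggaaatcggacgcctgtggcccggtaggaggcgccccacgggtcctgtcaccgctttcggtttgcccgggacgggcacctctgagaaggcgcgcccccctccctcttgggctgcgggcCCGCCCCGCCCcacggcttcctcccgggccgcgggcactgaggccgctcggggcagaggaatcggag
Vamp8: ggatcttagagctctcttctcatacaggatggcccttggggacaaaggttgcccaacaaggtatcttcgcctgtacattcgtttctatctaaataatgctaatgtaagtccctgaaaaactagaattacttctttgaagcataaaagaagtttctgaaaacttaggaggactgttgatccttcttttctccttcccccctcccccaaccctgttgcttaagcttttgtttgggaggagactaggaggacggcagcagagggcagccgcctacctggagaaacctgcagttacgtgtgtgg

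The table held promoters of 48 of the 64 members, 63 windows in all. Syn1 was the only member with TTCAGCACC, a match found in 0.371% of all 32851 promoters, and also the only one with TGACGTCA, found in 1.79% of all. GGGCGG stood in 19 of 28 neuronal, 17 of 27 general and 4 of 8 unplaced windows, against 35.7% of all promoters. CACGTG stood in 4 neuronal, 3 general and 1 unplaced window, against 7.15% of all. Syngr2 holds 4 GC boxes, of which a pair overlaps, Vamp5 holds 2 that overlap, Syngr1 holds 1, and Syn1 and Vamp8 hold none. The windows of neuronal and general members alike were rich in G and C, with medians of 65.0 and 60.3% against 52.7% of all promoters. Vamp8 was an exception among those shown, at 46.7% G and C with 5 CpG steps, where its neighbour Vamp5 has 67.3% and 25. A match is a run of letters, not a shown binding site.

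In the second comparison the ES IPs were set against the JL IPs, which by the study's description were the same fraction of the same line. Here too neuronal and general members went apart, in the opposite sense. Of 30 tested neuronal members 29 were higher in the ES IPs and none was lower, and of 22 general members 12 were lower, 3 higher and 7 not called. Of 16212 genes tested 57.9% were called, 29.7% higher and 28.2% lower in the ES IPs, and the libraries of 65.9% did not overlap. The medians were 2.53 for neuronal members, -0.59 for general members and 0.03 for all genes. The 3 ES IPs carried a lane number that no JL library had, and no ES input was analysed here, so investigator, lane and group cannot be told apart.

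Snap25 stood at 12454, 11405 and 10504 CPM in the ES IPs, all above the JL IPs (3.14 ± 0.19, adjusted p = 7.29e-07). Cplx3 had the largest rise of the members, to 11.3, 10.1 and 12.7 CPM (4.40 ± 0.32). It was followed by Syngr1 (3.80 ± 0.22), Stx1a (3.77 ± 0.20) and Cplx2 (3.55 ± 0.25), the last at 1658, 1963 and 2829 CPM. Among the called neuronal members Vamp2 (1.45 ± 0.19) and Stxbp5 (1.15 ± 0.21) differed least. This comparison shares the JL IPs with the first. Syt9 was the exception, at 8.63, 7.87 and 9.99 CPM in the ES IPs against 7.50, 5.57 and 3.91 in the JL IPs. Its libraries did not overlap but the change of 0.72 ± 0.29 was not called (adjusted p = 0.0519). It was called with library size alone (0.0360), DESeq2 (0.0367), all 9 libraries in one fit (0.0242) and without JL IP replicate 1 (0.0177).

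The synaptic list again moved with other neuronal markers. All 12 neuron markers without a vesicle role were higher, with a median of 3.04 and a summed level in the ES IPs of 6315 to 7915 CPM. Markers of glia were mostly higher too, with 6 of 6 for oligodendrocytes (median 1.47), 5 of 7 for astrocytes (2.26, with 1 lower) and 4 of 6 for microglia (1.74). All 15 endothelial markers were lower, with a median of -2.76. What part of the SNARE differences the mix of cell types accounts for was not tested.

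Of the general and unplaced members lower in the ES IPs, Syngr2 stood at 9.59, 7.78 and 6.39 CPM in the ES IPs (-2.62 ± 0.21), Vamp3 at 227, 141 and 155 (-1.98 ± 0.20) and Syt15 at 11.2, 7.17 and 7.16 (-2.53 ± 0.31). Each lay below all JL IPs. Vamp8 stood at 117, 53.5 and 52.4 CPM (-1.11 ± 0.28) and Vamp5 at 22.9, 9.18 and 8.83 (-1.44 ± 0.33). In both genes ES replicate 1 was more than 2-fold above the other 2 ES libraries yet below the JL IPs. This was not particular to these neighbours, since Cldn5, on chromosome 16, stood at 124, 58.0 and 57.0 CPM in the ES IPs. Snap23 (-1.27 ± 0.21), Stx11 (-2.16 ± 0.45), Stx2 (-1.86 ± 0.22), Stx3 (-1.46 ± 0.21), Stx4a (-0.88 ± 0.18) and Stx17 (-0.84 ± 0.18) were lower as well.

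The general members higher in the ES IPs were Snap47 (2.54 ± 0.18), Stx7 (1.01 ± 0.18) and Stx16 (0.75 ± 0.16). Stx7 was the only general member higher in both IP sets than in the inputs and higher again in the ES IPs, at 208, 164 and 154 CPM against 87.2, 106 and 83.5 in the JL IPs. As given above, its small rise over the inputs in the JL IPs (0.28 ± 0.10) lost its call in several alternatives. The calls of Stx5a (-0.67 ± 0.20) and Stx6 (-0.52 ± 0.17) were lost on leaving out single libraries. For Stx5a these were JL IP replicate 1 (adjusted p = 0.0579), ES IP replicate 2 (0.0537) or ES IP replicate 3 (0.0591). For Stx6 they were JL IP replicate 1 (0.0877), JL IP replicate 2 (0.0787), ES IP replicate 2 (0.106) or ES IP replicate 3 (0.0563). Stx12 (-0.37 ± 0.15, adjusted p = 0.0554) was called with DESeq2 (0.0332), all 9 libraries in one fit (0.00380) and without ES IP replicate 1 (0.0222).

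**Figure D2:**
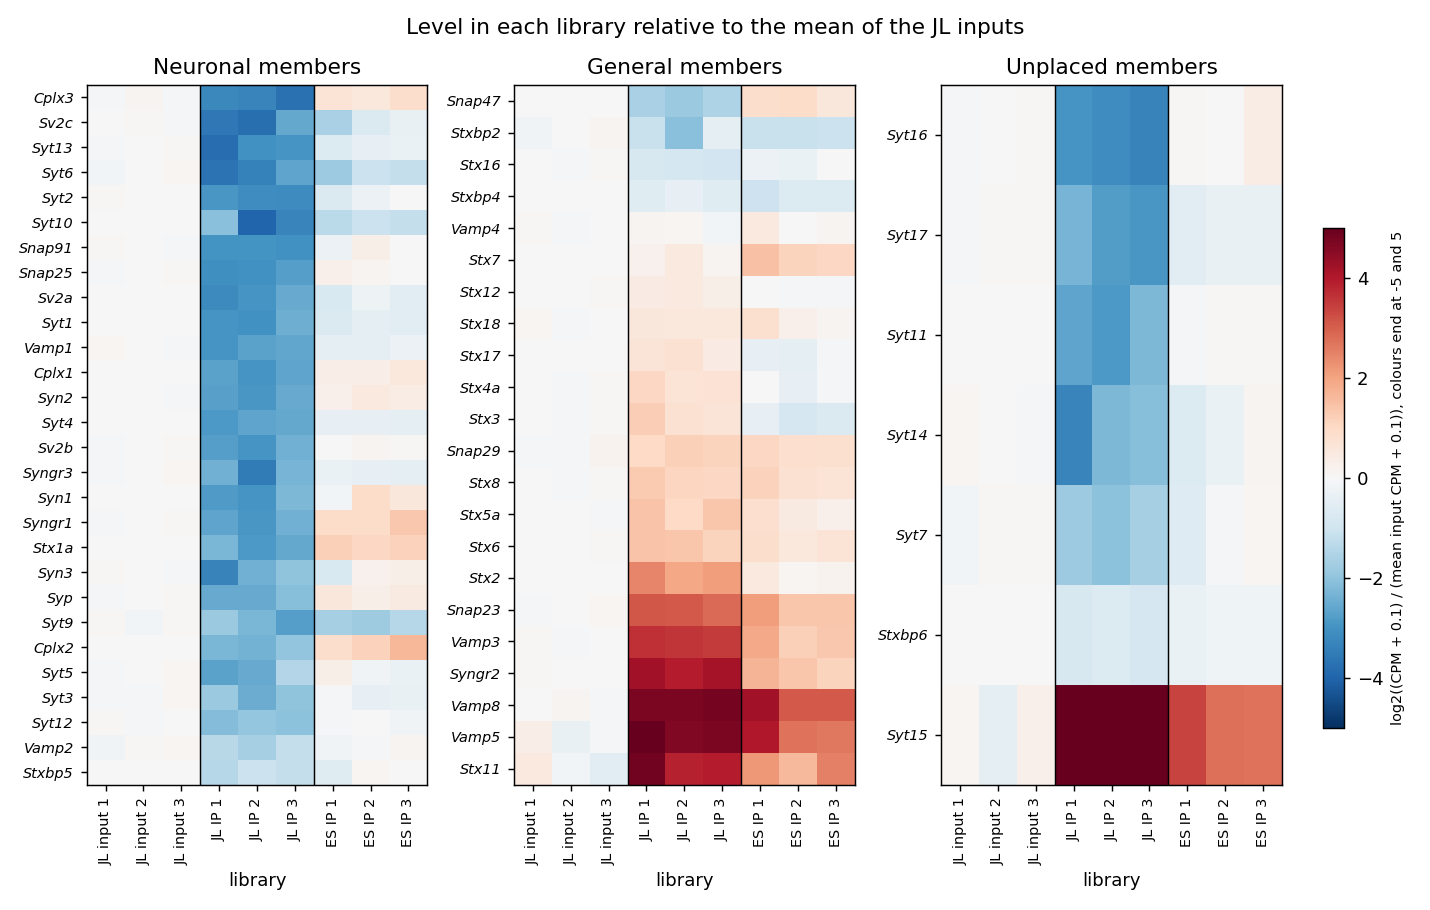
Heat map of the level of each tested member reported here (rows) in each of the 9 libraries (columns), as log2 of CPM + 0.1 relative to the mean of the JL inputs, with colours ending at -5 and 5. Neuronal members are blue in all 3 JL IPs. In the ES IPs they lie on both sides of the input level, with fold changes from -1.62 (Syt9) to 1.27 (Cplx2). Vamp3, Vamp5, Vamp8, Syngr2, Snap23, Stx11 and Syt15 are red in both IP sets and darker in the JL IPs.

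In the third comparison the ES IPs were tested over the JL inputs, prepared by different people, to show how far the ES IPs departed from total cortical RNA. Of the 17477 genes tested 52.2% were called, and the libraries of 64.2% did not overlap. The neuronal members centred on the input level, with a median of -0.04, but spread to both sides. Of 30 tested, 9 were higher, 10 lower and 11 not called, where 26.9% of all genes tested were higher and 25.3% lower in the ES IPs. With upper quartile scaling 40.7% of the genes called were higher against 51.5% with TMM, and with library size alone 43.2%. Of 22 general members 12 were higher and 3 lower, with a median of 0.63, against 0.00 for all genes. The comparison shares its libraries with the first and the second, so its values are not independent of theirs.

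The split among neuronal members followed families in part. All 3 tested complexins were higher, Cplx2 from 895, 887 and 901 CPM in the inputs to 1658, 1963 and 2829 in the ES IPs (1.27 ± 0.21, adjusted p = 0.00148), Cplx3 by 0.71 ± 0.15 and Cplx1 by 0.40 ± 0.12. Stx1a was higher, at 229, 204 and 223 CPM against 98.5, 99.7 and 101 (1.13 ± 0.11), and so was Syngr1, at 336, 333 and 451 CPM against 170, 174 and 184 (1.09 ± 0.15). For these genes no ES library overlapped an input. Syp (0.44 ± 0.14), which shares 16.8% of its exon bases with Gm14703 on the opposite strand, and Syn2 (0.38 ± 0.12) were higher by smaller amounts. The counts rest on small changes. The calls of Cplx2, Cplx3, Stx1a and Syngr1 held in all 13 alternatives, whereas without any 1 of the inputs, with upper quartile scaling or with library size alone 4 neuronal members were called higher.

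Synaptotagmins went the other way, with 6 of 10 neuronal ones lower and none higher. Syt1 stood at 864, 1042 and 975 CPM in the ES IPs (-0.59 ± 0.13, adjusted p = 0.00695). Syt9 was lowest relative to input (-1.62 ± 0.14), followed by Syt6 (-1.33 ± 0.20) and Syt10 (-1.22 ± 0.14). The calls of these 4 held in all 13 alternatives. Syt13 (-0.47 ± 0.13) and Syt4 (-0.45 ± 0.11), and outside this family Sv2c (-0.81 ± 0.27), Sv2a (-0.50 ± 0.15), Syngr3 (-0.42 ± 0.11) and Vamp1 (-0.41 ± 0.12), were lower with all libraries but not in each alternative. Without JL input replicate 2 or replicate 3 there were 5 neuronal members lower.

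The core fusion SNAREs Snap25 (0.12 ± 0.16, adjusted p = 0.538) and Vamp2 (-0.03 ± 0.15, adjusted p = 0.866) were not called, and their ES libraries overlapped the inputs. Syn1 stood at 499, 1038 and 829 CPM in the ES IPs against 541 to 564 in the inputs, with replicate 1 below and the others above, and was not called (adjusted p = 0.112). Without ES IP replicate 1 it was called higher (0.76, adjusted p = 0.000149). Syn3 turned from -0.01 ± 0.25 to a called 0.27 without that library (adjusted p = 0.0102). Neuron markers with no vesicle role had a median of 0.40, with 7 of 12 higher and 1 lower. All 15 endothelial markers were higher (median 4.59), and markers of the remaining cell types were mostly at or below the inputs. All 6 oligodendrocyte markers (median -1.29) and all 4 choroid plexus markers (-3.43) were lower. Of 7 astrocyte markers 3 were lower and 2 higher (-0.34), and of 6 microglia markers 3 were lower (-0.45). What part of the differences between members the mix of cell types accounts for was not tested here either.

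The general members that rose most in the JL IPs also stood above the inputs in the ES IPs, at a smaller size. Vamp8 (3.57 ± 0.32), Vamp5 (3.36 ± 0.42), Stx11 (2.74 ± 0.53), Snap23 (1.66 ± 0.20), Vamp3 (1.52 ± 0.18) and Syngr2 (1.44 ± 0.19) were higher than in the inputs, as was the unplaced Syt15 (3.10 ± 0.28). Stx7 (1.21 ± 0.14), Snap29 (0.90 ± 0.12), Stx8 (0.88 ± 0.14), Snap47 (0.80 ± 0.13), Stx6 (0.71 ± 0.12) and Stx5a (0.54 ± 0.15) were higher by smaller amounts. Of these, Snap47 was below the inputs in the JL IPs (-1.66 ± 0.09), and Stx7 had risen less there (0.28 ± 0.10) than in the ES IPs. The call of Stx5a ended with upper quartile scaling (adjusted p = 0.0529) or without JL input replicate 1 (0.0660), replicate 2 (0.0590) or replicate 3 (0.0754). Stxbp2 (-1.13 ± 0.14), Stxbp4 (-0.79 ± 0.13) and Stx3 (-0.65 ± 0.14) were lower. Stxbp2 and Stxbp4 stood no nearer the inputs than in the JL IPs (-1.10 ± 0.36 and -0.53 ± 0.08). Stx3 was thus above the inputs in the JL IPs and below them in the ES IPs, at 36.2, 33.1 and 36.7 CPM in the inputs, 82.2, 59.8 and 55.5 in the JL IPs and 26.7, 19.9 and 21.1 in the ES IPs.

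Levels of different genes were compared per length, as CPM per kb of annotated exon. In the inputs Snap25 led at 1546 CPM per kb, followed by Vamp2 at 446 and Cplx1 at 242. In the JL IPs Vamp3 led at 252, with Snap25 at 202, Vamp2 at 168, Stx12 at 93.3 and Vamp8 at 73.1. In the ES IPs Snap25 led again at 1687, followed by Cplx2 at 436 and Vamp2 at 435, which did not differ beyond their spread. The order below Snap25 was not that of the inputs, where Cplx2 stood at 181, below Cplx1. A general SNARE therefore stood first per length in the JL IPs alone. Without division by length Snap25 stood first there too, at 1373 CPM against 727 for Vamp3. The annotated exons come to 6.79 kb for Snap25 and 2.89 kb for Vamp3, so this rank depends on the length used.

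Shares inside families do not depend on scaling between libraries, and they were not tested. Among 6 Vamp genes, Vamp2 held 87.1 ± 1.49% of reads per kb in the inputs, 31.3 ± 3.55% in the JL IPs and 75.7 ± 6.86% in the ES IPs (SD, n = 3). Vamp3 held 4.14 ± 0.467%, 46.9 ± 2.87% and 10.5 ± 2.70%, and Vamp8 0.530 ± 0.0564%, 13.6 ± 0.512% and 5.60 ± 2.78%. The largest share was thus that of Vamp2 in the inputs and ES IPs and that of Vamp3 in the JL IPs. In the Snap25-type family Snap25 stayed first in each group, at 95.8 ± 0.138%, 76.5 ± 2.46% and 93.1 ± 0.378%, and Snap23 held 0.192 ± 0.00862% of the inputs and 9.56 ± 1.73% of the JL IPs. Among plasma membrane syntaxins Stx4a held 30.4 ± 0.894%, 66.0 ± 0.749% and 19.1 ± 2.0%. Syngr2 held 2.15 ± 0.175% of the synaptogyrins in the inputs, 71.2 ± 4.38% in the JL IPs and 4.09 ± 1.12% in the ES IPs.

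Inside purely neuronal families the make-up moved little in the JL IPs. Syn1 held 73.2 ± 1.05% of the synapsins in the inputs, 73.1 ± 2.35% in the JL IPs and 74.4 ± 5.23% in the ES IPs. Among the fast calcium sensors Syt1 held 93.8 ± 0.343%, 92.4 ± 2.86% and 95.2 ± 0.685%. The complexins were an exception, with Cplx2 at 42.7 ± 0.572% in the inputs, 52.3 ± 2.87% in the JL IPs and 56.9 ± 5.0% in the ES IPs.

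**Figure D3:**
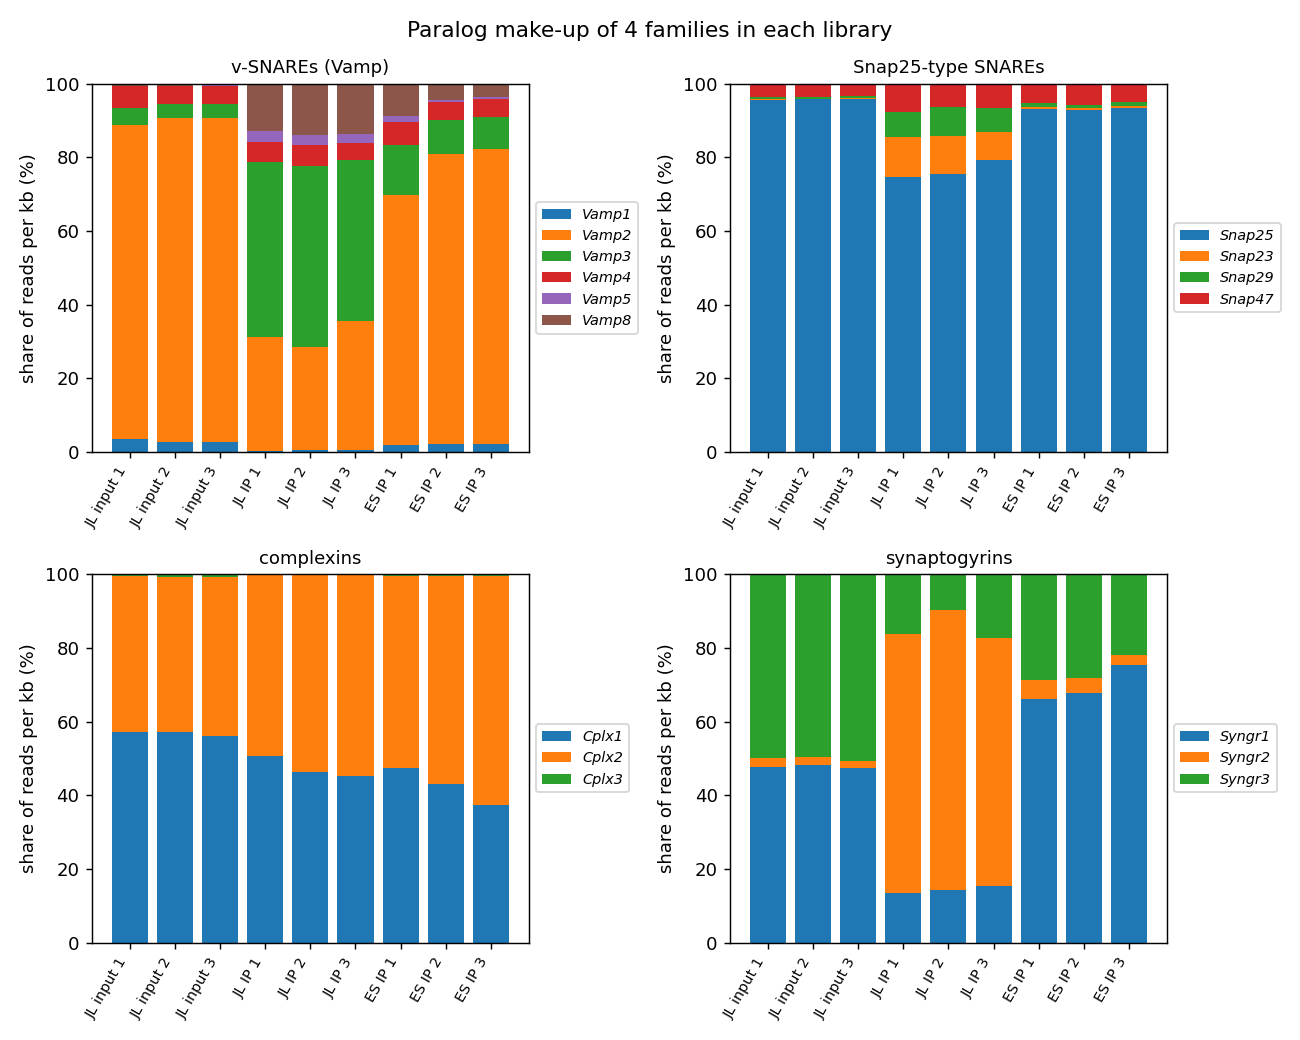
Stacked bars of the share of reads per kb (percent, from 0 to 100) that each gene took within its family, in each of the 9 libraries. Vamp3, Snap23 and Syngr2 take their largest shares in the 3 JL IPs, where Syngr2 averages 71.2%.

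General and neuronal members were also set against each other as the ratio of a general member to its neuronal counterpart inside each library, for 6 pairs. The largest shift was that of Syngr2 to Syngr1, whose log2 ratio per kb was -4.35, -4.49 and -4.57 in the inputs and 2.38, 2.42 and 2.13 in the JL IPs, a 110-fold difference. Vamp5, Vamp8 and Vamp3 relative to Vamp2 stood 79.0-fold, 72.0-fold and 31.8-fold higher in the JL IPs, Snap23 relative to Snap25 61.6-fold and Stx2 relative to Stx1a 27.0-fold. For these 6 pairs the JL IPs and inputs did not overlap.

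In the ES IPs the pairs divided. Vamp8, Vamp5, Vamp3 and Snap23 still stood above the input ratio to their counterparts, by 11.3-fold, 9.69-fold, 2.88-fold and 2.83-fold. Stx2 to Stx1a stood below it, with a log2 difference of -0.89. Syngr2 to Syngr1 overlapped the inputs (log2 difference 0.35, exact permutation p = 0.4). With 3 libraries against 3 the exact test cannot go below p = 0.10, the two-sided value of every other comparison of these 6 pairs, or 0.108 after Benjamini-Hochberg adjustment over all 27 tests run, so no ratio passed a threshold of 0.05.

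**Figure D4:**
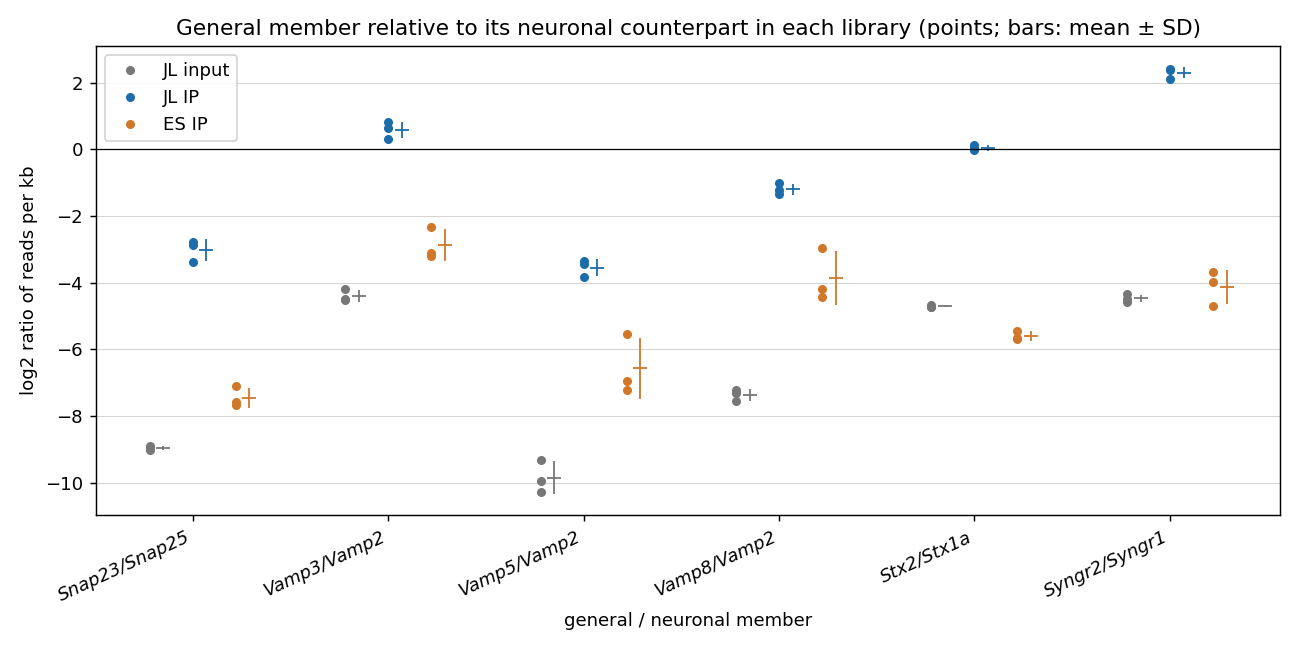
Log2 ratio of reads per kb of a general member to its neuronal counterpart in each library (points) with the group mean ± SD (bars), for 6 pairs and 3 groups. The JL IPs lie highest in every pair by their mean, and above 0 in all libraries for Vamp3/Vamp2 and Syngr2/Syngr1.

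Other genes of the release machinery went mostly the same way as the neuronal members. Of 30 presynaptic partners, such as active zone scaffolds and vesicle transporters, 29 were lower in the JL IPs and 28 higher in the ES IPs than in the JL IPs, with medians of -2.42 and 2.22. The shares among all genes tested were 37.4% lower and 29.7% higher. The lowest in the JL IPs were Sh3gl2 (endophilin A1, -3.14 ± 0.13) and Amph (amphiphysin, -3.10 ± 0.09), both of vesicle retrieval. Doc2a, a calcium sensor that shares 39.4% of its exon bases with Ino80e on the opposite strand, was lower by the least (-0.55 ± 0.17). The exception was Unc13b (Munc13-2), a priming factor, which was higher in the JL IPs (2.44 ± 0.10) and lower in the ES IPs than in the JL IPs (-1.96 ± 0.16).

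General SNARE partners divided. Of 22, 12 were higher and 6 lower in the JL IPs than in the inputs, with a median of 0.45, and 4 were not called. Among all genes tested 36.7% were higher and 37.4% lower in the JL IPs. The lowest were Nsf, the ATPase that takes SNARE bundles apart (-2.30 ± 0.09), and Napg, its gamma adaptor (-1.81 ± 0.10). The highest were Unc13d (Munc13-4, 2.26 ± 0.74) and Sytl4 (granuphilin, 2.09 ± 0.51), both of granule secretion, with wide errors. Against the inputs, 8 of the 22 were higher and 1 lower in the ES IPs, where 26.9% of all genes tested were higher and 25.3% lower.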

How the data were processed

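Per the labels' protocols, cortex was homogenised and tagged polysomes were captured with antibodies on magnetic beads. The authors deposited raw read counts per gene, which per the submitters' processing notes came from STAR 2.0.0e, mm10 and HTSeq; the sources used here name neither annotation nor strand setting. Reads outside any gene (17.3 to 24.4%) and ambiguous reads (2.04 to 2.54% in IPs, 10.3 to 11.4% in inputs) were left out, as was a row for reads of an unknown gene (at most 6.77e-06%). Each of the 3 comparisons was fitted on its own 6 libraries over the whole table using glmQLFit and glmQLFTest (edgeR 4.0.16, R 4.3.3) after filterByExpr and TMM scaling, p-values being adjusted by Benjamini-Hochberg across every gene tested (threshold 0.05); standard errors were derived from F. On simulated counts the test found 55, 35 and 63% of 2-fold and 75, 85 and 86% of 4-fold changes, in the order JL IP to input, ES IP to JL IP and ES IP to input (16863, 15873 and 17159 genes). In the simulation far fewer genes changed than were called in the data, equally up and down, so these shares need not hold for the data. Positions and exon lengths are from GENCODE M21, which matched 63 of 64 members; promoters are from RefSeq. Ratios used a pseudocount of 0.5 counts. Members with a mean of at least 1 CPM in a group could be named, as could from each partner list the 2 highest and 2 lowest called genes. Values of 2 neuronal members, and 3 ratio pairs that use them, enter the counts and sums but are not reported here. Members, classes and lists were chosen with earlier results of these data known. Alternatives were RLE and upper quartile scaling, library size alone, no filter, DESeq2 1.42.0, 1 fit of all 9 libraries, a replicate block and leaving out each library. Chi-square statistics between replicate counts were at least 7 per degree of freedom, so each file counted as 1 replicate.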

Additional observations from a re-analysis of the deposited data

Results flagged for a closer look

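Of the tested members reported here, 9 were called in opposite directions in the JL IPs and the ES IPs against the same inputs, with the ES and JL IPs also called apart by edgeR's quasi-likelihood test. The share of all genes with this pattern was not counted, so whether 9 is many cannot be said. Calls were common, at 74.1% of genes for JL IP against input, 57.9% for ES IP against JL IP and 52.2% for ES IP against input. Of the 9 members, 7 were neuronal, below the inputs in the JL IPs and above them in the ES IPs. Their log2 fold changes of ES over JL IP were 3.24 for Cplx1, 3.55 for Cplx2, 4.40 for Cplx3, 3.77 for Stx1a, 3.16 for Syn2, 3.80 for Syngr1 and 2.90 for Syp. Snap47, a general member with broad brain expression, showed the same order (2.54). It shares 11.6% of its exon bases on the opposite strand, as Syp does 16.8%. Stx3 showed the reverse order, above the inputs in the JL IPs and below them in the ES IPs (-1.46). Cplx1, Syn2 and Syp lost their call against the inputs in the ES IPs in several alternatives, and the other 6 kept theirs in all 13. Both sets are compared with the JL inputs, and no ES input was analysed here.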

How the results depend on the processing

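Of the recomputed counts of members called, 146 stayed within 1.5 times the count reported and 10 did not. These 10 concerned ES IP against JL input. Neuronal members called higher came to 4 with upper quartile scaling, 4 with library size alone and 5 with a replicate block, against 9, and ranged from 4 to 11 when single libraries were left out. Neuronal members called lower ranged from 5 to 12 when single libraries were left out, against 10. General members called lower came to 5 with upper quartile scaling, against 3, and ranged from 3 to 5 when single libraries were left out. Of the named members, Vamp4 turned to -0.22 in JL IP against JL input with library size alone, and Syn3 to 0.27 in ES IP against JL input without ES IP replicate 1, in a range from -0.18 to 0.27 over single libraries left out; sign changes of values called in neither fit were not counted. Of the other recomputed member values 2195 kept their side of the threshold, 80 lost their call and 24 gained one. The causes were not tested.

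Scaling moved the whole scale for JL IP against JL input: the median of all genes was -0.09 with TMM, -0.34 with upper quartile scaling and -0.35 with library size alone, where 41.8 and 41.6% of called genes were higher against 49.6%. For ES IP against JL input it was 0.00, -0.15 and -0.11, with 40.7 and 43.2% higher against 51.5%. Samples with the same replicate number correlated by 0.0998, 0.0382 and 0.0593 in their deviations between JL IPs and inputs, each best with its own number. In the other comparisons the correlations were 0.0429 or less. JL libraries of the same number also carried the same lane number, and whether they share more than that was not tested. The main fits did not pair libraries. With the replicate block JL IP against JL input still gave 30 neuronal members lower and 17 general members higher, and the block moved no count other than the one above by more than 1.5 times. Members with a few counts, such as Stx11 in the inputs, carry large counting error.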
